A study of Mus musculus with 10 samples.

Results

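The AP-1 transcription factor subunits Fos, Fosb, Fosl1, Fosl2, Jun, Junb and Jund, with the related basic leucine zipper (bZIP) factors Maff and Atf3, were followed across 10 arrays of mouse Lewis lung carcinoma cells. The 9 genes were chosen by symbol, out of 18193 genes on the array, and were read by 13 of its 45101 probe sets, each annotated to a single symbol. The Lewis lung carcinoma (LLC) line comes from a lung tumour of C57BL/6 mice. In the line TDAG8-LLC the cells stably expressed TDAG8, the proton-sensing G protein-coupled receptor encoded by Gpr65. In control LLC they carried the control vector. The plots call these the TDAG8 line and the control line. Both lines were kept without serum for 12 h at pH 7.4, and were then given fresh serum-free medium at pH 6.4 (acid) or pH 7.4 for 4 h or 12 h; each line was also sampled before this change. There was 1 Affymetrix Mouse Genome 430 2.0 array for each line and condition, and its RNA was an equal mix from 4 independent cultures. Whether a line was 1 clone, and which promoter drove TDAG8, is not given in the sources used here.

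AP-1 is a dimer of bZIP proteins in which a Jun protein pairs with itself or with a Fos protein, while Fos proteins do not form stable dimers among themselves. Dimers bind the TPA response element (TRE), and some Jun and ATF pairs prefer the cyclic AMP response element (CRE). Fos, Fosb, Junb and Atf3 are known as immediate early genes, transcribed soon after a stimulus into short-lived mRNAs, whereas Fosl1 is itself known as a target of AP-1. MAFF is a small Maf protein with no transactivation domain, which pairs with other bZIP factors and also with FOS.

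Values below are signals on the linear scale of the authors' table, scaled to a trimmed mean of 100 on every array, and differences are on the scale log2(signal + 2.4) after quantile normalisation. The constant added to the signal understates the difference of a gene with low signals. A probe set's signal depends on its sequence as well as on the mRNA, so no gene's level is set against another's here. Of the 18193 genes, 12161 passed a filter on the mean over all 10 arrays, which corresponds to a signal of 6.61, and all 9 AP-1 and related genes were among them. Since no condition had a replicate array in a line, the 2 lines stood in for replicates in the limma fits. The p-values then measure the spread between these arrays, and the number of arrays limits their precision. A gene passed when its adjusted p, by limma with Benjamini-Hochberg adjustment over all 12161 genes, was under 0.05.

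The array medians lay between 11.7 and 13.8. The probe set for Gpr65 read 0.9 to 5.3 in TDAG8-LLC and 0.3 to 4.9 in control LLC, under the filter in both, so it gave no check of which line carried the receptor. Among the markers of cell types, Krt8 and Krt18 of the epithelial list were measured well above the filter, and the list's summed signal was 1286 to 2856 on the pH 6.4 arrays and 1614 to 2202 on the other 6, with Cdh1 under the filter signal on every array. Ptprc, the defining leukocyte marker, and the endothelial markers Pecam1 and Tek were also under it on every array. The leukocyte markers Cd68, Adgre1 and Lyz2 and the endothelial markers Cdh5 and Kdr passed the filter on their means, with signals of at most 20.8. Of these, Cd68 passed as higher in acid at 12 h (0.66, SE 0.16, adjusted p = 0.0244 by limma). The 6 leukocyte markers on the array summed to 38.4 to 51.3 at pH 6.4 and 22.8 to 44.9 elsewhere, and the 4 endothelial markers to 15.7 to 33 and 19.2 to 25.1. The 6 fibroblast markers summed to 1024 to 1308 at pH 6.4 and 1824 to 3564 on the other arrays, with Col1a1 under the filter signal throughout and Pdgfra, Pdgfrb and Dcn giving most of the sum. This sum moved with pH, as several AP-1 genes did, and its part in the results was not tested.

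The main comparison asked which AP-1 subunits differed between acid and neutral medium, and whether the set at 4 h was the set at 12 h. At 4 h, 3 of the 9 genes rose at pH 6.4: Fos by 5.00 on the log2 scale, Junb by 2.66 and Maff by 2.03. At 12 h, 4 rose: Fos by 2.16, Maff by 1.98, Fosl1 by 1.91 and Junb by 1.50, and Jund fell by 0.66. The acid response of Fos and Junb was smaller at 12 h than at 4 h, that of Fosl1 was larger, and that of Maff was 2.03 at 4 h and 1.98 at 12 h. Of all genes tested, 6.19% passed as higher and 11.5% as lower at 4 h, and 16.9% and 17.6% at 12 h. The median difference of the 9 genes was 0.77 at 4 h and 1.50 at 12 h, beside 0.01 and 0.02 over all genes tested. The 9 genes were chosen with earlier results of these data known, so the medians are descriptive only. With arrays centred on their medians in place of quantile normalisation, 312 genes passed as higher and 1527 as lower at 4 h (753 and 1397 here), and the calls for Fos, Junb and Maff at 4 h held, while the fall of Jund at 12 h did not pass (−0.46, adjusted p = 0.13 by limma).

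**Figure D1:**
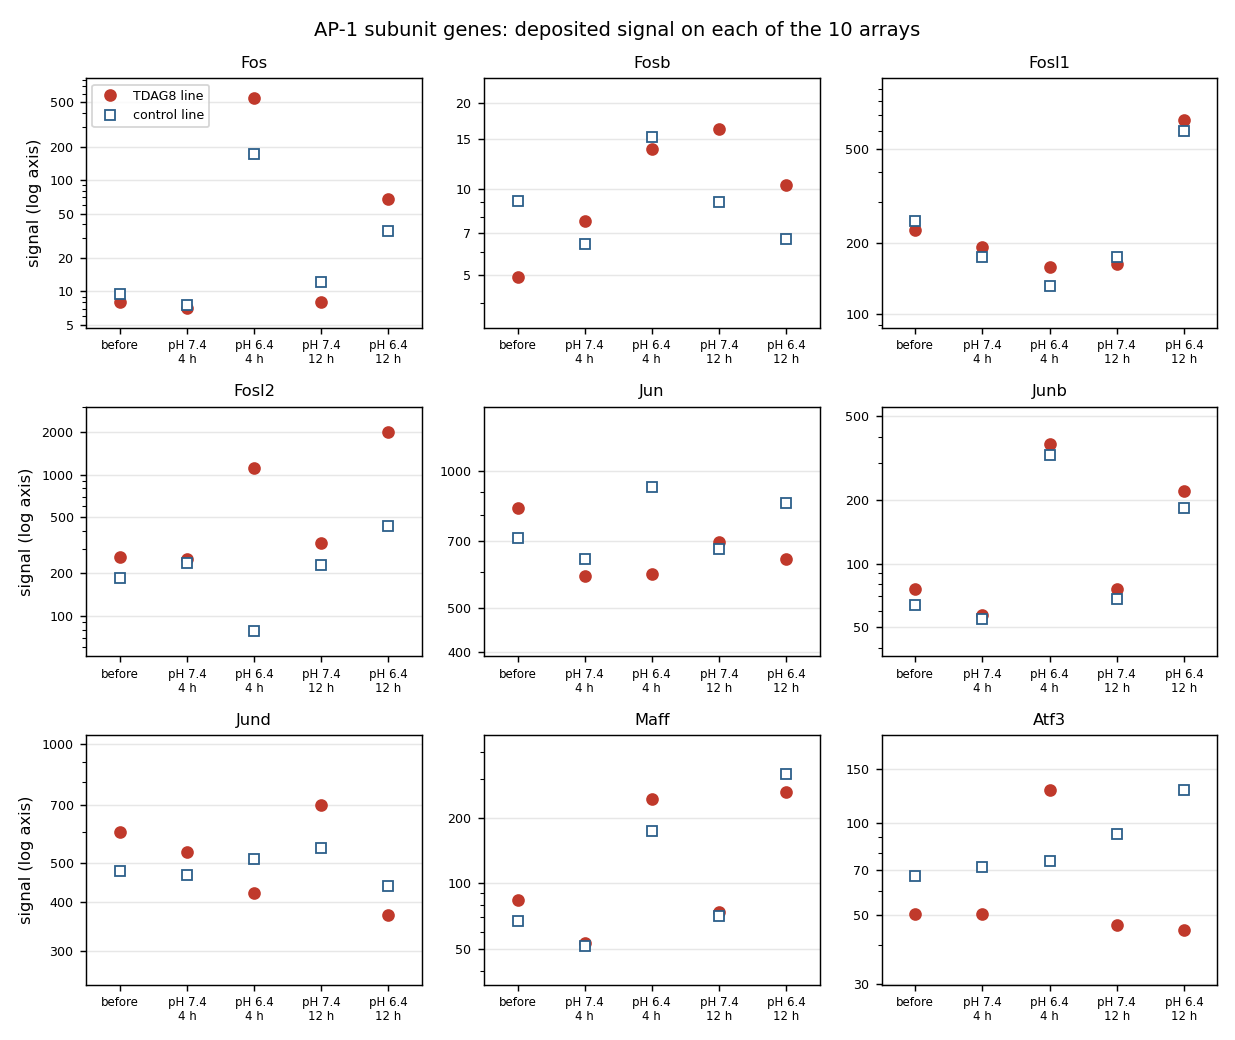
Signal (log axis) of the probe set used for each of the 9 genes on all 10 arrays, by condition on the horizontal axis and by line (see legend); each point is 1 array. On the pH 6.4 arrays Fos, Junb and Maff lie above all 6 other arrays, while Fosl1 is high on the pH 6.4 arrays of 12 h only, at 666 and 596.

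Fos, the prototype Fos protein and a partner for every Jun protein, was close to the filter signal on all arrays without acid. In TDAG8-LLC its signal was 8 before treatment and stood at 7.1 and 8 in neutral medium (4 h and 12 h), but at 547 and 67.9 in acid. In control LLC the neutral values were 9.4 before treatment, 7.6 and 12.1, and the acid values were 172 and 34.6. All 4 pH 6.4 arrays were thus above all 6 others, and in each line the 4 h array was the higher of the pH 6.4 arrays. The 4 h difference of 5.00 (SE 0.49, adjusted p = 0.00334 by limma) corresponds to 32.1-fold and was the largest rise among the 12161 genes. At 12 h the difference was 2.16 (SE 0.49, adjusted p = 0.0182 by limma), or 4.47-fold, and ranked 22nd. Because its baseline lies near the filter, the size of the Fos difference followed the constant added before taking logs: with 32 in place of 2.4 it was 3.16 at 4 h and 1.0 at 12 h, and it passed at both times. The 12 h call was lost with the 8 treated arrays alone and line by time as a block (adjusted p = 0.0608 by limma), and without either 12 h array of TDAG8-LLC, at adjusted p = 0.097 (log2 1.84) without the pH 6.4 array and 0.11 (1.73) without the pH 7.4 array.

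Junb, a Jun protein that forms AP-1 with Fos proteins and activates simple TRE promoters less strongly than JUN does, followed the same course over a narrower range. In TDAG8-LLC its signal was 76 before treatment, 56.9 and 75.7 in neutral medium (4 h and 12 h), and 370 and 220 in acid. In control LLC it was 63.5 before treatment, then 54.7 and 67.7 in neutral medium against 326 and 184 in acid. The lines were close on every array, and the pH 6.4 arrays did not overlap the others. The rise was 2.66 at 4 h (SE 0.10, adjusted p = 0.000723 by limma), 6.33-fold and ranked 12th, and 1.50 at 12 h (SE 0.10, adjusted p = 0.000769 by limma), 2.83-fold.

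Maff, the small Maf factor, was the third of the genes with all 4 pH 6.4 arrays above the rest. Its signal in TDAG8-LLC was 83.9 before treatment, 53.7 and 74.3 in neutral medium (4 h and 12 h), and in acid 243 and 263. In control LLC the values were 67.1, then 51.8 and 71.3, and 174 and 316 at pH 6.4. In both lines the 12 h signal at pH 6.4 was above the 4 h signal. After normalisation the difference of 12 h from 4 h was 0.00 in TDAG8-LLC and 0.72 in control LLC (log2). The rise was 2.03 at 4 h (SE 0.17, adjusted p = 0.00263 by limma) and 1.98 at 12 h (SE 0.17, adjusted p = 0.00111 by limma), or 4.07-fold and 3.94-fold.

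Fos, Junb and Maff were the 3 genes that also passed in the fit of pH over both times, with differences of 3.58 (SE 0.69, adjusted p = 0.0387), 2.08 (SE 0.27, adjusted p = 0.0175) and 2.00 (SE 0.13, adjusted p = 0.0105) by limma on the 8 treated arrays. They ranked 2nd, 20th and 27th from the highest of 12161, and 4.47% of all genes passed as higher in this fit. They were likewise the 3 of 9 whose 4 pH 6.4 arrays all exceeded the 4 pH 7.4 arrays, which 12.6% of all genes did; against all 6 other arrays the share was 9.57%. For Fos and Junb both 4 h arrays at pH 6.4 also exceeded all 8 other arrays (6.21% of all genes), and for Fosl1 and Maff both 12 h arrays did (15.5%). For Maff in TDAG8-LLC this was a near tie, with 12 h minus 4 h at pH 6.4 at 0.00 (log2). These calls depended on the pairs of arrays: without the 12 h pair of either line no gene of the 12161 passed, and the differences were then 3.86 and 4.26 for Fos, 2.27 and 2.28 for Junb, and 2.07 and 1.95 for Maff. Without the 4 h pair of TDAG8-LLC only Maff among the 9 passed, and without that of control LLC only Junb and Maff did, with Fos at 2.81 and 3.41.

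The promoters of these 3 genes are shown because they rose at both times. Each is the 250 bases before an annotated start, from RefSeq on GRCm38.p6, read 5′ to 3′ on the gene's own strand. Capitals mark the CRE core TGACG on that strand and, for Maff, the full palindrome TGACGTCA. The Fos window lies at chr12:85473640-85473889 (+ strand), the Junb window at chr8:84978749-84978998 (− strand) and the Maff window at chr15:79347270-79347519 (+ strand), before the second of 3 annotated Maff starts, shown because it is the 1 of the 3 that holds the full palindrome.
Fos: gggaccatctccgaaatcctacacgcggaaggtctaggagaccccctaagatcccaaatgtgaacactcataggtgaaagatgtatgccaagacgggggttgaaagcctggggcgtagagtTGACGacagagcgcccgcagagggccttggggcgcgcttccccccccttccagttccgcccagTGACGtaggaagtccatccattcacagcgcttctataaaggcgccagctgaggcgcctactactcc
Junb: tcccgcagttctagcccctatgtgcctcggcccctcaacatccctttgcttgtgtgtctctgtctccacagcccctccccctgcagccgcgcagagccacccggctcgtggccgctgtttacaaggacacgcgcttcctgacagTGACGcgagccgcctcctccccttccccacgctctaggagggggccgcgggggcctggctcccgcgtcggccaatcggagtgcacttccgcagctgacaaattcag
Maff: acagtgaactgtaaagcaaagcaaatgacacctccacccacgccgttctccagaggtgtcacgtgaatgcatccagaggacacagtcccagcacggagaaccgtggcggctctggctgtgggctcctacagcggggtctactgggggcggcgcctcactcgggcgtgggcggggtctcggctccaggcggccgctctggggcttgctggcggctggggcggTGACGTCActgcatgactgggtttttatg

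In the Fos window TGACG stood at bases −129 to −125 and −66 to −62 from the start, with TATAAA at −33 to −28. In the Junb window TGACG stood at −106 to −102, and in the Maff window TGACGTCA stood at −29 to −22. Windows were found for 8 of the 9 genes, 10 in all, with Fosl1 lacking one. On both strands, TGACG was also found in the windows of Fosb (−60 to −56), Atf3 (as CGTCA, −7 to −3) and the third Maff start (as CGTCA, −122 to −118), and in none of the windows of Fosl2, Jun, Jund and the first Maff start. Among all 32851 windows of this length, 17.8% held TGACG, 1.55% held TGACGTCA, which contains it on both strands, and 12.4% held TATAAA. The TRE letters TGACTCA or TGAGTCA (4.46% of windows) and the serum response element's CArG box (1.47%) were found in none of the 10 windows. Bases further from the start than 250, and variants of these letters, were not searched, so sites there may have been missed. A match describes letters in these windows and is no evidence of binding.

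Fosl1, which encodes FRA1, a Fos protein without the transactivation domain of FOS, had the opposite timing. In TDAG8-LLC its signal was 227 before treatment, 192 and 163 at pH 7.4 (4 h and 12 h), 159 at pH 6.4 for 4 h and 666 at pH 6.4 for 12 h. In control LLC the same 5 values were 248, 174, 175, 132 and 596. The 12 h array at pH 6.4 was the highest of each line. The 4 h array at pH 6.4 was the lowest in control LLC, and in TDAG8-LLC it was close to the neutral array of 12 h. Fosl1 rose at 12 h by 1.91 (SE 0.13, adjusted p = 0.000769 by limma), which is 3.76-fold and ranked 39th, whereas the 4 h difference was −0.22 (SE 0.13, adjusted p = 0.3). The other Fosl1 probe set gave a 12 h difference of 1.84 (SE 0.30, adjusted p = 0.0066 over 22854 probe sets) and a 4 h difference of −0.27, with signals of 208 and 141 at pH 6.4 for 12 h and 29 to 81.2 on the other 8 arrays.

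The difference between the 12 h and the 4 h acid response was tested directly, as the 12 h response minus the 4 h response. It was −2.84 for Fos (SE 0.69, adjusted p = 0.0491), 2.13 for Fosl1 (SE 0.19, adjusted p = 0.0155) and −1.16 for Junb (SE 0.14, adjusted p = 0.0155) by limma, and these were the 3 of 9 genes that passed. Of all genes, 6.63% passed with a positive value (806 genes, or 1146 with arrays centred on the median). A further 5.52% passed with a negative value (671 genes, or 247). A positive value can be a larger rise or a weaker fall at 12 h, and a negative value a weaker rise or a deeper fall. Both lines showed the direction of each of the 3 genes. The values were −3.15 in TDAG8-LLC and −2.54 in control LLC for Fos, 2.22 and 2.04 for Fosl1, and −1.22 and −1.10 for Junb. Maff gave −0.05 (SE 0.25, adjusted p = 0.915), with −0.44 in TDAG8-LLC and 0.35 in control LLC. The median was −0.52 for the 9 genes and 0.04 for all genes.

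**Figure D2:**
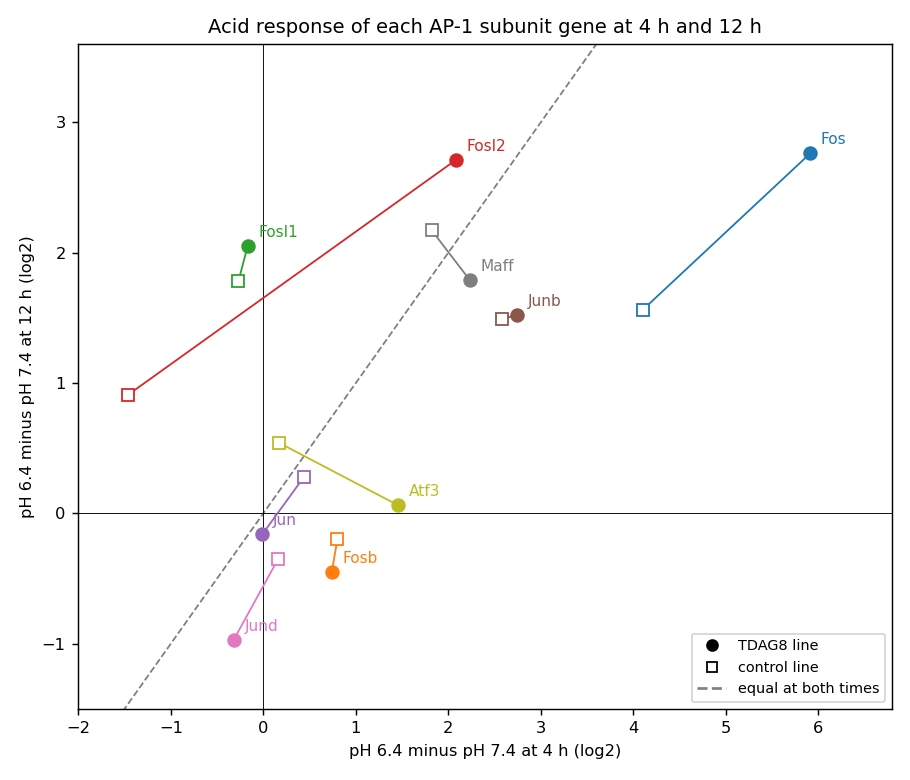
Acid response (pH 6.4 minus pH 7.4, log2) of each of the 9 genes at 4 h (horizontal axis) against that at 12 h (vertical axis). Each line has 1 point a gene, the points of a gene are joined, and the dashed line marks equal responses. Fos and Junb lie below the dashed line in both lines, Fosl1 lies above it, and Maff lies near it. The fitted means, not drawn, went from 5.00 to 2.16 for Fos, 2.66 to 1.50 for Junb, −0.22 to 1.91 for Fosl1 and 2.03 to 1.98 for Maff.

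The calls of this test of timing depended on the fit. With the 8 treated arrays alone and line by time as a block, no gene of the 12161 passed (adjusted p = 0.134 for Fos, 0.0993 for Fosl1 and for Junb), and without the filter none of 18193 genes passed. Leaving out any 1 of the 4 pH 7.4 arrays, or the control LLC array of pH 6.4 at 4 h, left none of the 9 passing, with adjusted p from 0.0524 to 0.0781 for Fosl1 and differences from 2.02 to 2.23. Fos did not pass in any of the 10 fits that left out 1 array, with adjusted p from 0.0524 to 0.152. Each of the 3 genes kept its direction in 21 of 21 alternatives.

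At pH 6.4 itself, from 4 h to 12 h, Fos fell by 2.60 (SE 0.49, adjusted p = 0.0136), Junb fell by 0.85 (SE 0.10, adjusted p = 0.00415) and Fosl1 rose by 2.00 (SE 0.13, adjusted p = 0.00305) by limma. Over all genes 12.2% passed as lower and 14.9% as higher. These arrays are also part of the comparisons with pH 7.4, so the values restate the same arrays from another side. At pH 7.4 from 4 h to 12 h, and from before treatment to 4 h at pH 7.4, limma passed 0 of the 9 genes and 0 of all genes. At an unadjusted p under 0.05 there were 1 of the 9 (Junb, 0.31) among 1278 genes for time at pH 7.4, and 3 of the 9 (Fosl1 −0.37, Junb −0.31 and Maff −0.49) among 566 genes for the change of medium. With trended and robust variances in limma, 25 genes passed for time at pH 7.4 and none of the 9 among them.

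Fosl2, which encodes FRA2, the fourth Fos protein, was read by a pair of probe sets that disagreed at 4 h in control LLC. The probe set used in the fit, designed from an expressed sequence tag, read 262 before treatment, 252 and 330 in neutral medium (4 h and 12 h), and in acid 1121 and 2019 in TDAG8-LLC. In control LLC it read 186, then 238 and 230, and 77.7 and 436 at pH 6.4. The other, designed from the RefSeq mRNA, read 39.5, 32.9, 35.6, 620 and 222 in the same order in TDAG8-LLC, and 24.6, 20.9, 26.7, 59.9 and 83.5 in control LLC. The control LLC array of pH 6.4 at 4 h was thus the lowest of its line on the first probe set and the second highest on the other.

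On the first probe set Fosl2 did not pass: the difference was 0.31 at 4 h (SE 0.87, adjusted p = 0.836) and 1.81 at 12 h (SE 0.87, adjusted p = 0.159) by limma. The 4 h mean hides opposite signs, 2.08 in TDAG8-LLC and −1.46 in control LLC, and it became −1.08 without the TDAG8-LLC array of pH 6.4 and 1.70 without the control LLC array. On the other probe set all 4 pH 6.4 arrays exceeded the other 6, which held for 9.57% of all genes tested on the probe sets used in the fit. In the fit of 22854 probe sets it rose by 2.83 at 4 h (SE 0.68, adjusted p = 0.0389) and by 2.49 over both times (SE 0.46, adjusted p = 0.0307), and the 12 h difference was 2.15 (SE 0.68, adjusted p = 0.0563). Its response at 12 h minus that at 4 h was −1.60 in TDAG8-LLC and 0.24 in control LLC, against 0.63 and 2.37 on the first probe set. Whether Fosl2 belongs with the early or the late genes therefore depended on the probe set.

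**Figure D3:**
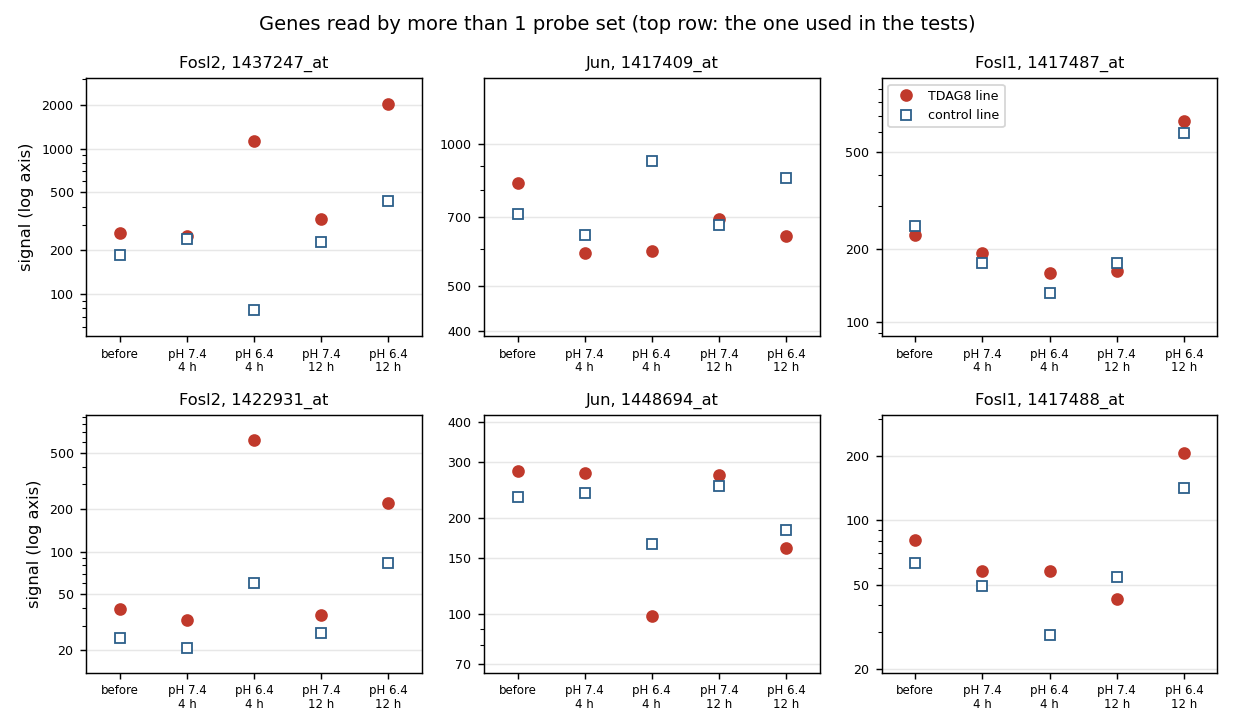
Signal (log axis) of both probe sets of Fosl2, Jun and Fosl1 on all 10 arrays, by condition and line; the top row holds the probe set used in the fit. On the control LLC array of pH 6.4 at 4 h the Fosl2 probe set used in the fit falls to 77.7 where the other reads 59.9, above its 20.9 to 26.7 at neutral pH and before treatment; the Jun probe set not used is lower at pH 6.4 in both lines.

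Jun, the founding Jun protein and a partner for Fos proteins, ATF2 and ATF3, did not pass in any comparison. The probe set used read 828 before treatment, 587 and 696 in neutral medium (4 h and 12 h), and in acid 593 and 639 in TDAG8-LLC. In control LLC it read 712, then 641 and 673, and 921 and 849 at pH 6.4. Acid arrays were the 2 highest of control LLC and lay within the range of the others in TDAG8-LLC. The differences were 0.21 (SE 0.21, adjusted p = 0.521) at 4 h and 0.06 at 12 h by limma. The other Jun probe set read 98.6 and 161 at pH 6.4 against 274 to 280 on the other arrays of TDAG8-LLC, and 166 and 184 against 232 to 252 in control LLC. Its acid arrays were below all others, which held for 9.37% of all genes tested on the probe sets used in the fit. Its difference over both times was −0.75 (SE 0.20, adjusted p = 0.0655 by limma over 22854 probe sets). The 2 probe sets of Jun thus differed in sign and neither passed.

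Jund, a Jun protein often high in resting cells, read 600 before treatment, 532 and 699 in neutral medium (4 h and 12 h), and in acid 420 and 371 in TDAG8-LLC. In control LLC it read 479, 466, 546, 512 and 438 in the same order. At 12 h the pH 6.4 arrays were the lowest of their lines, and the fall of 0.66 (SE 0.20) passed narrowly (adjusted p = 0.0483 by limma). It passed in 6 of 21 alternatives. The adjusted p was 0.219 without the TDAG8-LLC pH 6.4 array of 12 h and 0.239 without its pH 7.4 partner, with differences of −0.46 and −0.47. The other Jund probe set read 4.6 to 8.2, under the filter signal on 8 of 10 arrays, and gave no usable value.

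Atf3, a stress-induced factor that pairs with Jun proteins, did not pass in any comparison. In TDAG8-LLC its signal was 50.7 before treatment, 50.6 and 46.5 in neutral medium (4 h and 12 h), and in acid 128 and 44.7. In control LLC it was 67.3, then 71.6 and 91.7, and 74.9 and 128 at pH 6.4. The highest array was pH 6.4 at 4 h in TDAG8-LLC and pH 6.4 at 12 h in control LLC. The differences were 0.82 at 4 h (SE 0.48, adjusted p = 0.288) and 0.30 at 12 h by limma. The 4 h value was 0.01 without the TDAG8-LLC array of pH 6.4 at 4 h and 1.63 without the control LLC array.

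Fosb, the Fos protein most like FOS in having a transactivation domain, stayed near the filter signal on every array. It read 4.9 before treatment, 7.7 and 16.3 in neutral medium (4 h and 12 h), and in acid 13.8 and 10.3 in TDAG8-LLC, and 9.1, 6.4, 9, 15.2 and 6.7 in control LLC. At 4 h both pH 6.4 arrays were above their pH 7.4 partners, and at 12 h both were below. The 4 h difference of 0.77 (SE 0.32, adjusted p = 0.149 by limma) and the 12 h difference of −0.33 did not pass.

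Counted in each line without a test, TDAG8-LLC had 5 of 9 genes at or above a log2 difference of 1 at 4 h (Fos, Junb, Maff, Fosl2 and Atf3) and 5 at 12 h (Fos, Fosl2, Fosl1, Maff and Junb). Of all genes, 3.37% and 5.81% were that high. None of the 9 was at or below −1 there, beside 5.7% and 7.83% of all genes. Control LLC had 3 at 4 h (Fos, Junb and Maff) and 4 at 12 h (Maff, Fosl1, Fos and Junb), beside 3.26% and 5.95% of all genes, and Fosl2 at 4 h was the 1 gene at or below −1, beside 6.04% of all genes at that time and 8.69% at 12 h. Fos, Junb and Maff at 4 h, and these with Fosl1 at 12 h, were therefore past this limit in each line on its own.

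The comparison of lines asked whether the receptor's presence went with another level or another acid response of these genes. Between TDAG8-LLC and control LLC over all 5 conditions, limma passed 146 genes (0.674% of all genes higher and 0.526% lower in TDAG8-LLC) and 0 of the 9. At an unadjusted p under 0.05 there were 2525 genes and 1 of the 9, Fosl2, at 1.40 (SE 0.55, adjusted p = 0.226). Without acid, no gene of the 9 differed between the lines by 1 or more on any of the 3 pairs of arrays. Of all genes, 1.96% were at or above 1 and 1.3% at or below −1 before treatment, 1.92% and 1.33% at pH 7.4 for 4 h, and 1.61% and 1.12% for 12 h. The differences of Fosl2 were 0.45 before treatment and 0.09 and 0.51 at pH 7.4. At pH 6.4 the TDAG8-LLC array was above the control LLC array by 3.63 at 4 h and 2.31 at 12 h for Fosl2, and by 1.52 and 0.81 for Fos. At 4 h these were the 2 of 9 genes at or above 1, beside 2.84% of all genes, and none was at or below −1, beside 1.9%. At 12 h it was Fosl2, beside 3.36%, and Atf3 was at −1.45, beside 2.01% at or below −1.

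**Figure D4:**
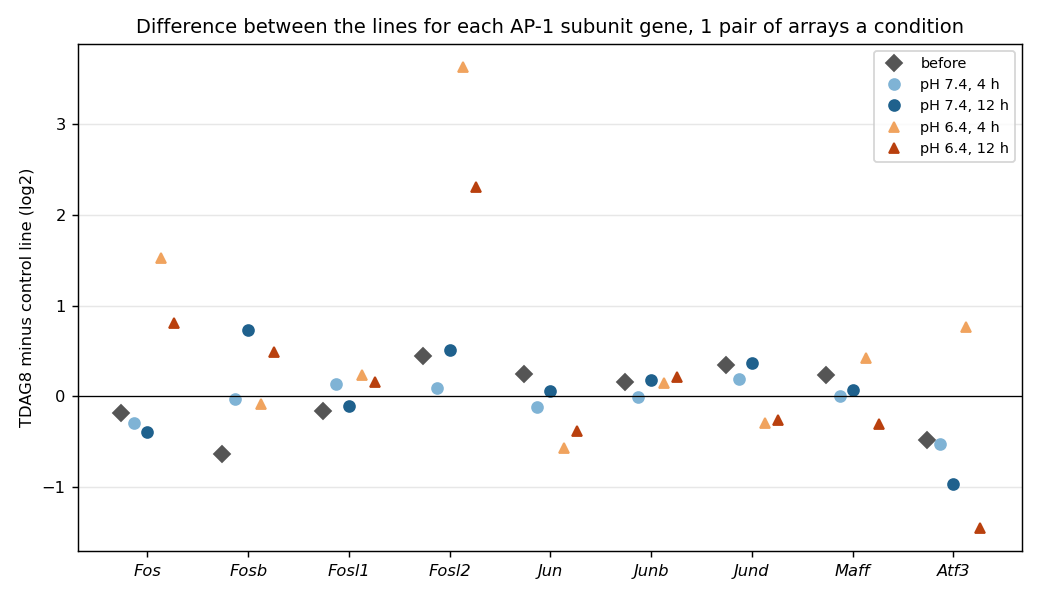
Difference between the lines (TDAG8-LLC minus control LLC, log2) for each of the 9 genes on each of the 5 pairs of arrays, 1 point a pair. The pairs at pH 6.4 stand apart for Fosl2 (3.63 and 2.31) and Fos (1.52 and 0.81), while Junb lies between −0.01 and 0.21 on all 5.

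The acid response was larger in TDAG8-LLC by 2.67 for Fosl2 (SE 0.83), which was the fourth highest value of 12161 genes, and by 1.51 for Fos (SE 1.33), averaged over both times. For Junb, Maff and Fosl1 it differed by 0.09 (SE 0.59), 0.02 (SE 0.32) and 0.19. In this fit the times stood in for replicates, so a pH response that differed between 4 h and 12 h entered the SE. The fit had 2 residual degrees of freedom, and limma passed 0 genes of the 12161. At an unadjusted p under 0.05 there were 339 genes, 1 of the 9 among them, which was Fosl2. The second Fosl2 probe set gave 1.81 in the same direction, and on it the TDAG8-LLC array exceeded the control LLC array by 3.20 and 1.29 at pH 6.4 and by 0.40 to 0.51 elsewhere. For Fos the value ranged from −0.07 without the TDAG8-LLC 4 h pair to 3.08 without its 12 h pair, and for Fosl2 from 1.49 to 3.85. With 1 array each, line and array cannot be told apart for any of these values.

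The genes most like each of the 9 were taken as the 2 with the highest Pearson correlation over the 10 arrays. Predicted genes and clone-named symbols, such as those with Gm or Rik, were skipped. The lines share the same 5 conditions, and the correlations describe these arrays and carry no test. Fos went most closely with Klf2 (r = 0.98), a Krüppel-like factor, and with Junb (0.97). Junb went with Cxcl2 (0.98), a neutrophil chemokine whose signal ran from 24.7 to 663, and with Arrdc3 (0.97), an arrestin family member. Maff went with Ier5 (0.98), an immediate early gene, and Dyrk1a (0.97), a protein kinase. Fosl1 went with Utp18 (0.99), a factor of ribosomal RNA processing, and Eif4e (0.98), the cap-binding initiation factor. For these genes the acid differences at 4 h and 12 h were 1.76 and 1.07 for Klf2, 4.11 and 2.62 for Cxcl2, 0.70 and 0.84 for Ier5, and −0.03 and 0.75 for Utp18. Fosl2 went with Tmem143 and Midn (0.94 each), Jund with Lrp1 (0.95) and Cd248 (0.94), Atf3 with Lamtor2 (0.92) and Ccnl1 (0.89), Jun with Prkg1 (0.91) and Lef1 (0.85), and Fosb with Gnao1 (0.90) and Prr13 (0.87). The last 5 genes had the lower correlations, and Prkg1, Lef1 and Fosb itself had signals near the filter.

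Other bZIP factors that can pair with AP-1 proteins moved in both directions. Of 24 tested of the 28 listed, 3 rose and 4 fell in the fit of pH over both times, beside 4.47% higher and 5.56% lower of all genes, and the median was −0.29 against 0.00 for all genes. At 4 h 2 of the 24 rose and 5 fell, beside 6.19% and 11.5% of all genes, and at 12 h 3 rose and 5 fell, beside 16.9% and 17.6%. Cebpd, a C/EBP factor, rose by 1.66 (SE 0.22, adjusted p = 0.0185 by limma), with 219 to 324 on the pH 6.4 arrays and 53.6 to 110 on the others. Mafk, a small Maf like Maff, rose by 1.22 (SE 0.22, adjusted p = 0.0333 by limma), from 50.6 to 85.9 without acid to 112 to 192 with it. Maf, a large Maf protein, fell by 1.21 (SE 0.18, adjusted p = 0.0215 by limma), and Atf4, the effector of the integrated stress response, fell by 1.20 (SE 0.21, adjusted p = 0.0322 by limma) from 2748 to 3396 without acid to 968 to 2471 with it. In the test of timing 2 of the 24 passed, both with a lower value at 12 h, beside 5.52% of all genes: Atf5, at −2.11 (SE 0.24, adjusted p = 0.0155 by limma), and Atf6, at −0.68 (SE 0.15, adjusted p = 0.0405 by limma). Atf5, a factor of the ATF4 family, read 142 and 206 at pH 6.4 for 4 h, 55.8 and 75 at 12 h, against 224 to 443 without acid.

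Of the kinases and transcription factors upstream of Fos and Jun, 18 of 24 were tested; none rose and 2 fell over both times, with a median of −0.07. Of all genes 4.47% passed as higher and 5.56% as lower in that fit. At 4 h none of the 18 rose and 4 fell, beside 6.19% higher and 11.5% lower of all genes, and at 12 h 2 rose and 6 fell, beside 16.9% and 17.6%. Rps6ka5, the kinase MSK1 that phosphorylates CREB and histone H3, fell by 1.08 (SE 0.23, adjusted p = 0.0464 by limma), and Map2k4, a kinase of JNK, by 0.53 (SE 0.12, adjusted p = 0.0489 by limma). In the test of timing 3 of the 18 passed, beside 6.63% higher and 5.52% lower of all genes. For Mrtfb and Mrtfa, coactivators of serum response factor, the value was 1.28 (SE 0.21, adjusted p = 0.0223) and 0.73 (SE 0.16, adjusted p = 0.0382) by limma. The acid difference of Mrtfb was −1.86 at 4 h and −0.59 at 12 h, a fall at both times that was weaker at 12 h. That of Mrtfa was −0.41 at 4 h and 0.31 at 12 h, neither of which passed. Map2k2, the ERK kinase MEK2, gave −1.03 (SE 0.19, adjusted p = 0.0286 by limma), with 0.16 at 4 h and −0.87 at 12 h. Mrtfb read 82.2 and 101 on the pH 6.4 arrays of 4 h, 226 and 260 at 12 h, and 328 to 390 on all others.

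The list of mRNA decay, which includes the AU-rich element pathway that shortens the life of Fos mRNA, held 6 genes. Zfp36 was the 1 that rose over both times and none fell, beside 4.47% higher and 5.56% lower of all genes, and the median was 0.16. At 4 h 1 of the 6 rose and none fell, beside 6.19% and 11.5% of all genes. At 12 h 3 rose and 1 fell, beside 16.9% and 17.6%. Zfp36 encodes tristetraprolin, a protein that binds AU-rich elements and recruits deadenylases. Its signal was 252 and 261 at pH 6.4 for 4 h, 186 and 162 at 12 h, against 40.4 to 94 without acid, a rise of 1.55 (SE 0.27, adjusted p = 0.0313 by limma). Its response at 12 h minus that at 4 h was −1.15 (SE 0.33, adjusted p = 0.0756), which did not pass.

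Of genes known to be regulated through AP-1 sites, 16 of 21 were tested, and 3 rose and none fell over both times, with a median of 0.53, beside 4.47% higher and 5.56% lower of all genes. Hbegf, an EGF receptor ligand, rose by 2.81 (SE 0.27, adjusted p = 0.0144 by limma), from 23.5 to 41.6 without acid to 125 and 151 at 4 h and 393 and 300 at 12 h. Ptgs2, the inducible cyclooxygenase, rose by 2.43 (SE 0.39, adjusted p = 0.0257 by limma), with 3092 and 3693 in TDAG8-LLC at pH 6.4, 897 and 1510 in control LLC, and 277 to 466 on the other arrays. Ccl2, a monocyte chemokine, rose by 2.37 (SE 0.17, adjusted p = 0.0114 by limma). At 4 h 4 of the 16 rose and none fell, beside 6.19% and 11.5% of all genes, and at 12 h 4 rose and 1 fell, beside 16.9% and 17.6%. None of the 16 passed in the test of timing.

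**Figure D5:**
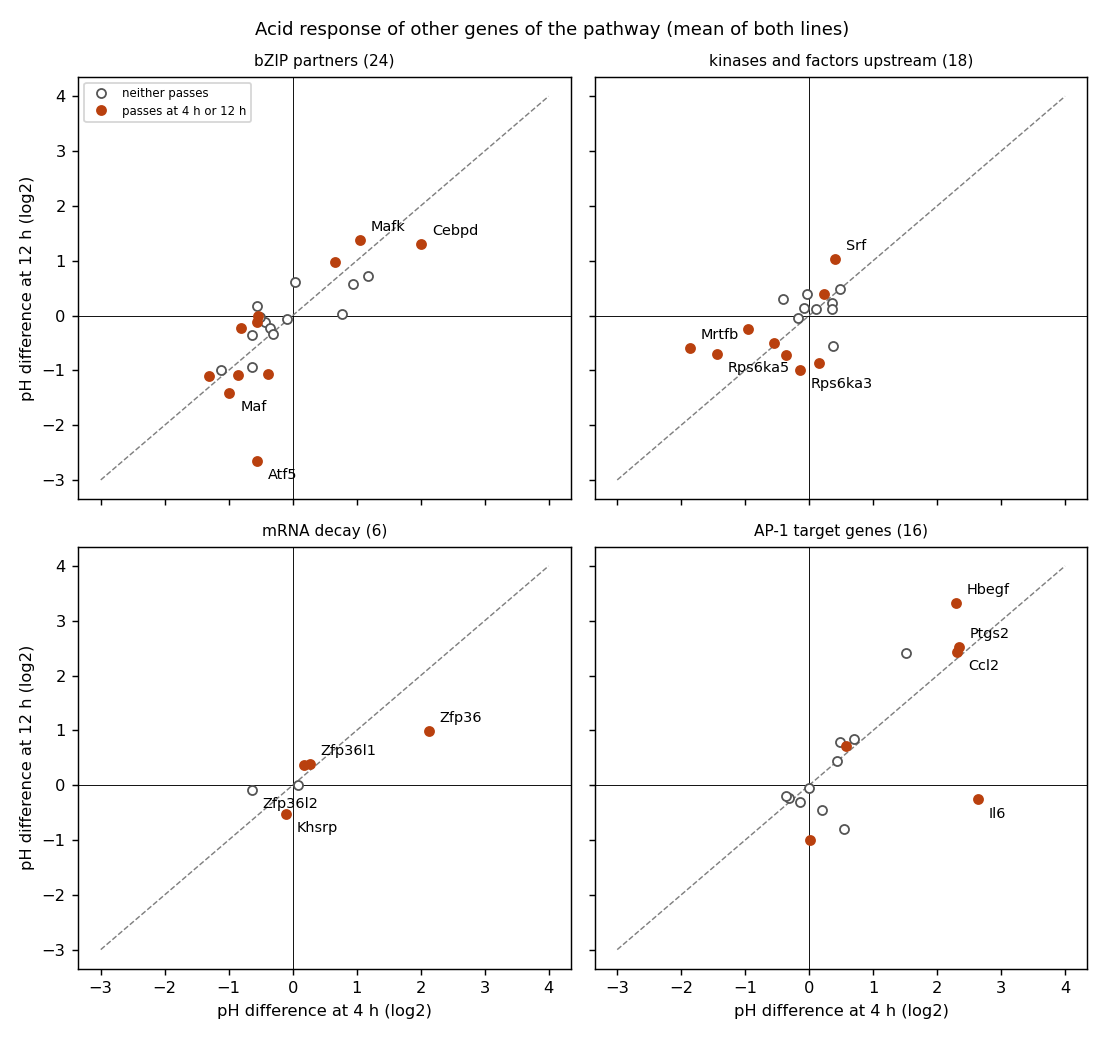
Acid response at 4 h (horizontal axis, log2) against that at 12 h (vertical axis, log2) for the tested genes of the 4 lists, 1 point a gene, mean of both lines; filled points pass at 4 h or 12 h, and the dashed line marks equal responses. Hbegf, Ptgs2 and Ccl2 lie at the upper right, Zfp36 to the right of the line at 2.13 and 0.98, and Atf5 below it.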

How the data were processed

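RNA was measured on 10 Affymetrix Mouse Genome 430 2.0 arrays, 1 for each line and condition, from 2 µg of total RNA, per the labels' protocols. The deposited values are intensity signals on a linear scale, 1 per probe set; the authors scaled each array to a 2% trimmed mean of 100, as the values show, and the summary method is not given in the sources used here. Probe sets were named from the platform annotation: 34945 of 45101 had a single symbol. Here the signals were quantile normalised and 2.4, the 20th percentile of all values, was added before taking log2. The brightest probe set by mean stood for each gene, and genes with a mean under the 40th percentile of all probe sets were left out.

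Tests used limma 3.58.1 in R 4.3.3 with Benjamini-Hochberg adjustment over all genes tested. pH over both times was fitted on the 8 treated arrays with a term for each line and time (3 residual degrees of freedom), pH by line on the same arrays (2 left), and all other comparisons on 10 arrays with line and condition as terms (4 left). The fits were tested on simulated data. The 9 genes and the other lists were chosen with earlier results of these data known. All 9 genes were described, 2 genes most like each, and from each other list up to 4 that passed in the fit of pH over both times or of timing, with the largest differences; Atf4, Atf6 and Map2k4 lie outside that rule and were added after their values were seen. Alternatives covered the normalisation, the added constant, the filter, the probe sets, the variance model, the blocks and leaving out arrays or pairs. The promoters are from RefSeq, GRCm38.p6.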

Additional observations from a re-analysis of the deposited data

Results flagged for a closer look

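For 3 of the 9 genes the acid response differed between the 2 times by limma's test of that difference. The values at 12 h minus those at 4 h were −2.84 for Fos, 2.13 for Fosl1 and −1.16 for Junb (log2). Of all genes, 6.63% passed with a positive value and 5.52% with a negative value. The call for Fos was narrow (adjusted p = 0.0491 by limma). With the 8 treated arrays alone and line by time as a block, none of the genes tested passed.

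For Jun the lines moved in opposite directions at both times on the probe set used in the fit, with acid differences in TDAG8-LLC of −0.01 (4 h) and −0.16 (12 h) and in control LLC of 0.44 and 0.28. The difference between the lines, averaged over the times, was −0.45 (SE 0.27 in the limma fit of pH by line, in which no gene passed), and the opposite signs themselves were not tested. The TDAG8-LLC value at 4 h is close to 0, and the other Jun probe set was negative in both lines.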

How the results depend on the processing

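The labels give no replicate numbers, so line, condition or line by time served as the block in the fits. No value of the 9 genes that passed changed sign in the alternatives run. Values that did not pass did so in places: Fosl2 at 4 h went from 0.31 to as low as −1.08, Jun at 4 h from 0.21 to −0.33, Atf3 at 12 h from 0.30 to −0.27, and Fosl1 in pH by line from 0.19 to −0.92. At 4 h Fos, Junb and Maff passed in 21 of 21 alternatives, and at 12 h Fosl1, Junb and Maff did, with Fos in 18 and Jund in 6. In the test of timing Fosl1 and Junb passed in 14 of 21 and Fos in 6. Of the 9 genes, 3 rather than 5 passed at 12 h with the treated arrays alone and line by time as a block (Fos and Jund were lost), and 0 rather than 3 passed in the test of timing under that block or without a filter. At a limit of 0.58 in place of 1, between the lines, 1 gene rather than 0 was past it before treatment and 2 at pH 7.4 for 12 h. Fosl1 passed over both times at adjusted p = 0.0131 by limma with pH by time in the model.

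Counts over all genes moved further. Over both times 1220 genes passed, and 2076 with trended and robust variances, 2537 of all probe sets, 1919 once the 60th percentile was the filter, 1863 with no block, 241 with no filter, 3397 with pH by time in the model and 2244 with 32 added. At 4 h the 2150 became 566 with the treated-array block, 3667 of all probe sets and 1073 with no filter, and at 12 h the 4195 became 7108 of all probe sets. In the test of timing the 1477 became 0 with that block or no filter, 2539 with trended variances, 2409 at the 60th percentile, 837 with the mean of probe sets and 2306 with 32 added. For time at pH 6.4 the 3302 became 5188 of all probe sets and 1894 with no filter, and for time at pH 7.4 the 0 became 25 with trended variances, 2 at the 60th percentile and 12 with 32 added. Between the lines the 146 became 85 with median-centred arrays, 881 with trended variances, 67 of all probe sets, 588 at the 60th percentile, 15 with no block, 9 with no filter, and 757, 264 and 96 with 32, 7.7 and 0.5 added. The causes of these moves were not tested.

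Leaving out arrays or pairs, 0 to 2 of the 9 genes passed over both times (0 to 278 of all genes), 3 in every case at 4 h (403 to 2222), 3 to 5 at 12 h (2288 to 3979), 0 to 2 in the test of timing (0 to 717), 2 to 4 for time at pH 6.4 (1420 to 2748) and 0 between the lines (4 to 28); each such fit has fewer arrays. Leaving out each array was added after seeing the data.

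With arrays centred on the median, the median over all genes rose from 0.02 to 0.12 at 12 h, from 0.03 to 0.15 for time at pH 6.4 and from 0.04 to 0.22 in the test of timing. The split of higher and lower calls was then 2252 and 1473 in place of 2058 and 2137 at 12 h, 2203 and 728 in place of 1817 and 1485 for time at pH 6.4, and 287 and 612 in place of 544 and 676 over both times. With values as deposited it was 365 and 739 over both times, and 74 and 35 in place of 82 and 64 between the lines.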
